A study of Mus musculus with 4 samples.

Results

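The 10 genes described here encode subunits of the transcription factor AP-1 and related immediate early factors, and were taken from the deposited table by their symbols: Fos, Fosb, Fosl1, Fosl2, Jun, Junb, Jund, Atf3, Egr1 and Egr2. All 10 were found among the 24532 genes of the table, 9 were above 0 in all 4 libraries, and each reached at least 1 FPKM in at least 1 library. RNA sequencing was done on articular cartilage of wild type C57BL/6 mice, with 1 library for each of 4 groups: sham and injured cartilage of young mice, and sham and injured cartilage of adult mice. Young meant 3 weeks of age. For the adults the methods give 10 weeks, while the sample labels give 12 weeks in the title and 14 weeks as the age. Injured cartilage was collected 3 days after full-thickness cartilage injury (FTCI), a needle wound in the patellar groove of the femur; the labels instead name DMM, which is destabilization of the medial meniscus. The adult sham library is labelled as days 3 to 14 and the adult injured library as day 3. In every adult injury ratio, injury and day after surgery therefore cannot be told apart. Cartilage of 10 injured or 5 control mice was pooled before RNA extraction, so the spread between mice was not measured, and no difference below has a replicate check or a p-value.

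AP-1 is a dimer of basic leucine zipper (bZIP) proteins. A Fos protein can bind DNA only together with a Jun protein, whereas Jun proteins also pair with each other and with ATF proteins such as Atf3. The genes are named immediate early genes because many of them are transcribed within minutes of a growth factor, cytokine or mechanical stimulus without new protein synthesis, through MAP kinases and through promoter elements bound by SRF and CREB, and their mRNAs are short-lived. In cartilage, AP-1 is known for driving collagenase and other protease genes, and Fosl2 and Jun for roles in chondrocyte and bone cell differentiation.

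The promoters of these genes are shown because the short elements they carry are what the named upstream factors read. Windows of 300 bases (250 before and 50 after an annotated start site, RefSeq, build GRCm38.p6, the assembly of mm10) were available for 8 of the 10 genes, all but Fosl1 and Egr1. Junb, past 2-fold after injury at both ages (chr8:84978699-84978998, minus strand), is printed beside Fos (chr12:85473640-85473939, plus strand), whose injury ratios stayed under 2-fold, and Atf3 (chr1:191183284-191183583, minus strand), which was past 2-fold after injury in young mice. Sequences run 5′ to 3′ along the gene, and capitals mark TGACG on either strand, which is the short form of the CREB element, and TATAAA.
Junb: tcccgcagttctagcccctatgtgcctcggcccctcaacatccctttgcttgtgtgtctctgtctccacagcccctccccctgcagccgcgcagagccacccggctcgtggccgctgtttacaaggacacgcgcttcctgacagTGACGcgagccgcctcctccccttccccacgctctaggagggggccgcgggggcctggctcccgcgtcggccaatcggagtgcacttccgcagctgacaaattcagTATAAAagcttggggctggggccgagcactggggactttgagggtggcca
Fos: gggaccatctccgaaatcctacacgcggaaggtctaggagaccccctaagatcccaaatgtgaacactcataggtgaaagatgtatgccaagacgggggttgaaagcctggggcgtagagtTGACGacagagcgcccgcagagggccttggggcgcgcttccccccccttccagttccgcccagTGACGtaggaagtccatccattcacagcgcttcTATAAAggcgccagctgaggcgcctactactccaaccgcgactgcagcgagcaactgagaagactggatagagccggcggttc
Atf3: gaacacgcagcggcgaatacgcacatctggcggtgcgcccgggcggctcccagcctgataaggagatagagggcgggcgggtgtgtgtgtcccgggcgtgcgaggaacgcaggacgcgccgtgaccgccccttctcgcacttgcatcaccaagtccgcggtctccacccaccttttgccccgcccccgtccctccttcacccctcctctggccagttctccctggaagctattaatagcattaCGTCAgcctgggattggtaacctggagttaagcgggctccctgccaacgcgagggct

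The short form TGACG (part of the full element TGACGTCA; both strands searched) began at -106 in Junb, at -129 and -66 in Fos and, on the opposite strand, at -7 in Atf3, counted from the start site. It was present in 5 of the 8 genes, the others being Fosb and Egr2, and in 20.8% of all 32851 promoter windows. The sequence TATAAA began at -33 in Fos and at 1, the start site itself, in Junb, and was present in 13.6% of all windows. Among the 8 genes a CArG box, the element bound by SRF, was present only in windows of Egr2. It was present in 1.63% of all windows. Bases outside the windows were not searched for any element, so a CArG box further upstream in Fos or another gene would be missed. Egr2 had windows at 5 annotated start sites, whereas the percentages count single windows. The box CCATATATGG is shown in capitals in this 50-base stretch upstream of an annotated Egr2 start site (chr10:67537777-67537826, plus strand).
Egr2: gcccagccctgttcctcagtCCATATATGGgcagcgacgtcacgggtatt

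The Jun window held TGACATCA, a match to TGACNTCA, which occurs in 8.83% of all windows, and the EGR element GCGGGGGCG was found in Fosb and Fosl2, against 2.91% of all windows. The AP-1 site TGANTCA was found in none of the 8 genes and in 7.81% of all windows. The NF-kB site was found in Egr2, Fos, Fosb and Fosl2 and in 9.38% of all windows, and the STAT site in none of the 8 genes and in 8.30% of all windows. The full element TGACGTCA was also found in none of the 8 genes, against 1.79% of all windows. These matches describe the letters of the windows and not binding.

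Junb, a Jun protein that cytokines of the IL-6 family and TGF-beta are known to induce, had the largest injury log2 ratio of FPKM + 1 of the 10 genes at both ages. Its gene lies on chromosome 8 at 84976909 to 84978748 (GRCm38.p6). It stood at 5.16 FPKM (sham) and 24.7 FPKM (injured) in young animals, and at 15.8 FPKM (sham) and 57.9 FPKM (injured) in adults. Both injured libraries were above both sham libraries, and at each treatment the adult library was above the young one. Injured cartilage held 4.79 times the sham level in young and 3.67 times in adult mice, log2 ratios of FPKM + 1 of 2.06 and 1.81. Of 8055 genes that averaged 5 FPKM or more, 1.86% had a ratio as large in young and 2.66% in adult mice. Junb kept a ratio of 2-fold or more at both ages on the TPM scale, after median-of-ratios scaling and after quantile normalization, with 1.49 as the lowest value, after median-of-ratios scaling of the adult libraries. Prdx2 lies on the opposite strand and shares 7.52% of the exon bases of Junb. It was at 148, 202, 102 and 135 FPKM in young sham and injured and adult sham and injured cartilage, and the strand setting of the counting is not given in the sources used here.

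**Figure D1:**
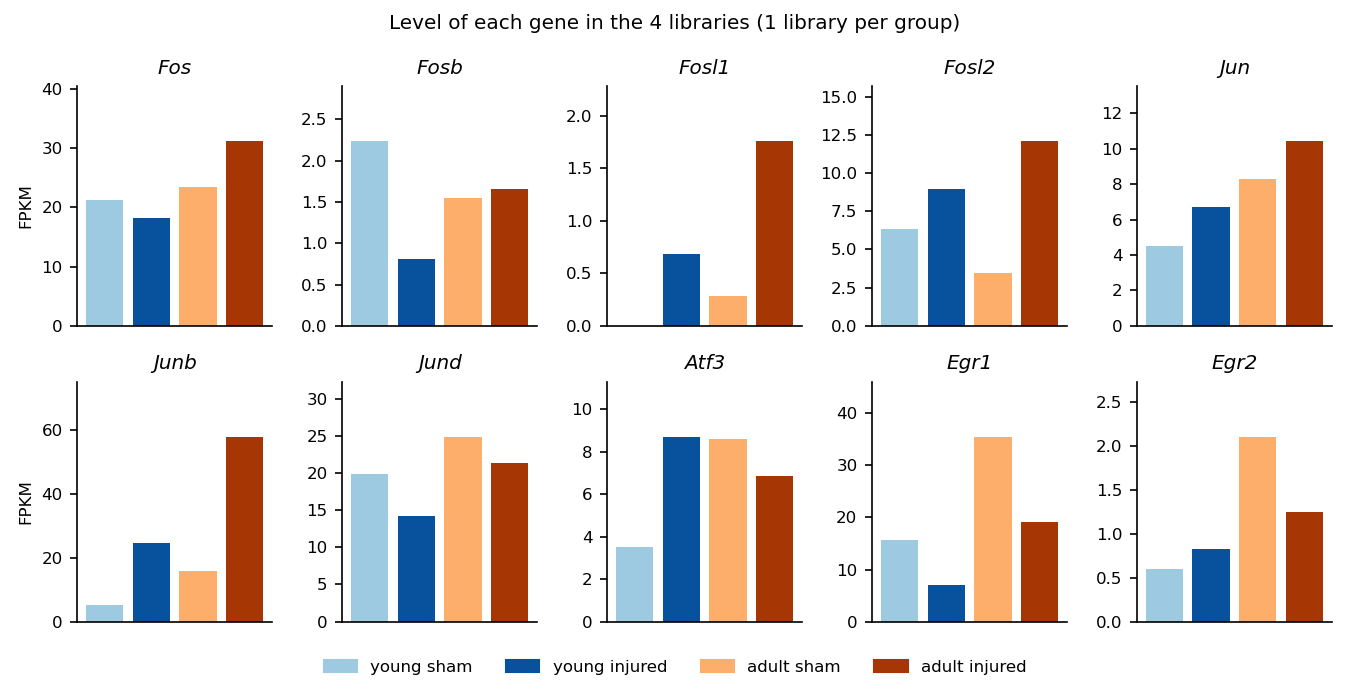
FPKM (y axis, linear and starting at 0, scaled per gene) of each of the 10 genes in the sham and injured libraries of young and then adult mice, 1 bar per library and no error bars because each group is 1 pooled library. Junb is highest in the adult injured library at 57.9 FPKM, whereas Egr1 is highest in the adult sham library at 35.4 FPKM.

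Jun, the founding Jun protein, stood at 4.49 FPKM (sham) and 6.72 FPKM (injured) in young animals, and at 8.31 FPKM (sham) and 10.4 FPKM (injured) in adults. Its log2 ratios, 0.49 for young and 0.30 for adult injury, were under 2-fold, and the adult value was -0.01 after median-of-ratios scaling. Jund, the Jun protein that most cells hold at a steady level, was at 19.8, 14.2, 24.8 and 21.3 FPKM in that order of libraries, with log2 ratios of -0.45 and -0.21. Of the annotated exon bases of Jund 52.6% overlap an antisense gene.

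The make-up of the Jun family therefore differed between sham and injured libraries. Junb held 17.5% of the summed FPKM of Jun, Junb and Jund in young sham and 54.1% in young injured cartilage, with 32.3% and 64.6% in the adult libraries. Jund held 67.3% and 31.1% in young mice, and 50.7% and 23.8% in adult mice. The most abundant Jun transcript was thus Jund in both sham libraries and Junb in both injured libraries. The share of Jun lay between 11.6% and 17.0% in the 4 libraries. Such shares are taken within a library and do not change when a library is multiplied by a factor. The summed FPKM of the family was 29.5 before and 45.6 after injury in young animals, and 48.9 and 89.7 in adults.

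**Figure D2:**
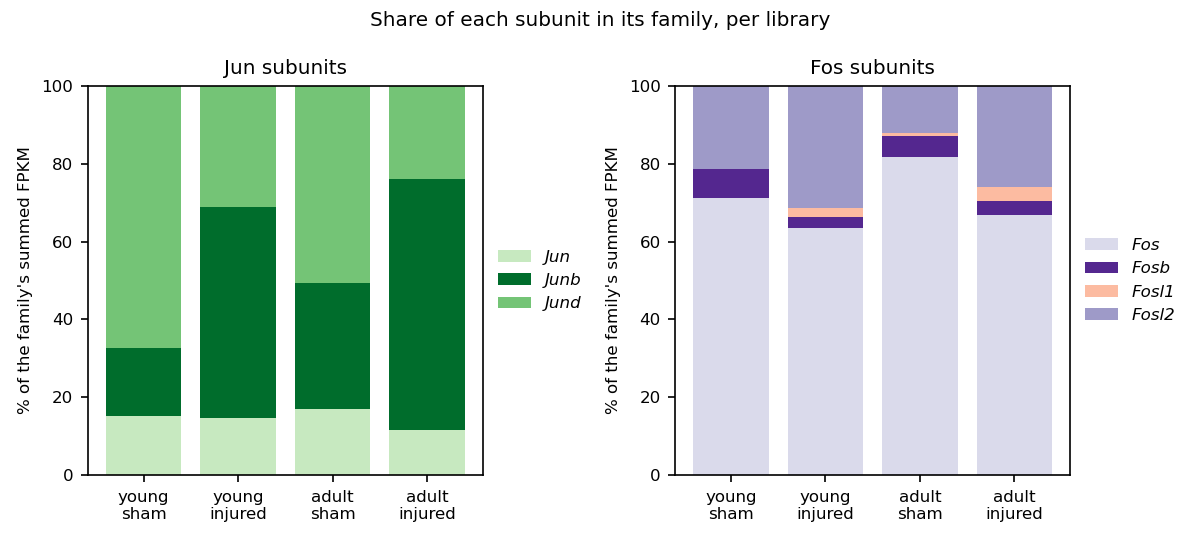
Share of each subunit in the summed FPKM of the Jun family (left) and of the Fos family (right), in percent (y axis), with 1 stacked bar for each of the 4 libraries. Junb takes 54.1% and 64.6% of the Jun family in the injured libraries against 17.5% and 32.3% in the sham libraries, and Fos is the largest part of the Fos family in every library.

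Fos, the best known immediate early gene, stood at 21.3 FPKM (sham) and 18.2 FPKM (injured) in young animals, and at 23.5 FPKM (sham) and 31.2 FPKM (injured) in adults. The highest level as deposited was 1.71 times the lowest, the smallest span among the 9 genes that were above 0 in every library. The log2 ratio was -0.22 for young and 0.39 for adult injury, and after median-of-ratios scaling -0.23 and 0.07. Fosb, which is induced together with Fos in many tissues, was at 2.23, 0.814, 1.55 and 1.65 FPKM in that order of libraries. In young mice the sham level was 2.74 times the injured level. This log2 ratio was -0.83 as deposited and passed 2-fold on the TPM scale (-1.13) and with 0.1 FPKM added (-1.35). The sign of its adult ratio of 0.05 changed with the scaling, to -0.16 after median-of-ratios scaling.

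Fosl2 and Fosl1 encode Fos-related proteins without the transactivation domain of Fos, and accumulate later than Fos after a stimulus in many cells. Fosl2 stood at 6.33 FPKM (sham) and 8.98 FPKM (injured) in young animals, and at 3.44 FPKM (sham) and 12.1 FPKM (injured) in adults. Both injured libraries were above both sham libraries, and the adult sham library was the lowest of the 4. Fosl2 rose in adult mice, to 3.51 times the sham level (log2 ratio 1.56, and 1.29 after median-of-ratios scaling), while its ratio in young mice was 0.44. Fosl1 was listed at 0 in the young sham library and stood at 0.687 FPKM after young injury, with 0.283 FPKM (sham) and 1.76 FPKM (injured) in adults. In adult mice this was 6.21 times the sham level and a log2 ratio of 1.10, which was under 2-fold after quantile normalization (0.87) and with 5 FPKM added (0.35), and no fold is given for young mice. If a regular step in the low FPKM of single-transcript genes is 1 fragment, about 33.5, 16.2 and 83.8 fragments stood behind these values of Fosl1. The exons of Ccdc85b on the opposite strand cover 57.2% of the exon bases of Fosl1, and Ccdc85b was at 4.06, 3.89, 5.08 and 5.62 FPKM in young sham and injured and adult sham and injured cartilage.

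Fos held 71.3% (sham) and 63.4% (injured) of the summed FPKM of the 4 Fos genes in young animals, and 81.7% and 66.8% in adults. Fosl2 held 21.2%, 31.3%, 12.0% and 25.9% in the same order. At both ages the share of Fos was lower and that of Fosl2 higher in the injured library.

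Atf3, a stress-induced bZIP protein that acts as a repressor or an activator depending on its partner, stood at 3.50 FPKM (sham) and 8.68 FPKM (injured) in young animals, and at 8.61 FPKM (sham) and 6.87 FPKM (injured) in adults. Young sham cartilage was the low library, and the other 3 lay close to each other. Atf3 rose after injury in young mice, to 2.48 times the sham level with a log2 ratio of 1.11 (0.69 with 5 FPKM added, under 2-fold), and its ratio was -0.29 in adult mice. The difference between the ages, -1.39 for adult minus young, was the largest of the 10 genes with FPKM as deposited and has no test. On the TPM scale that of Fosl2, 1.41, was larger than that of Atf3, -1.31.

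Egr1 and Egr2 are zinc finger proteins and not AP-1 subunits, but Egr1 is transcribed by the same SRF-dependent route as Fos. Egr1 stood at 15.7 FPKM (sham) and 7.09 FPKM (injured) in young animals, and at 35.4 FPKM (sham) and 19.1 FPKM (injured) in adults. At each age the injured library was below the sham library, and at each treatment the adult library was above the young one. It fell after injury in young mice, where the sham level was 2.22 times the injured level (log2 ratio -1.05, and -0.78 with 5 FPKM added). In adult mice the log2 ratio was -0.86, which became -1.19 after median-of-ratios scaling and -1.09 after quantile normalization. Egr2, known for its role in myelinating Schwann cells and in lymphocytes, was low throughout, at 0.597, 0.829, 2.1 and 1.25 FPKM in that order of libraries, with log2 ratios of 0.20 for young and -0.46 for adult injury.

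Counted with a threshold of 2-fold on the log2 scale of FPKM + 1, 2 of the 10 genes (Junb and Atf3) were higher and 1 (Egr1) was lower after injury in young mice. The background, over all 18181 genes above 0 in at least 1 library, was 4.57% higher and 1.27% lower, and over the 8055 better expressed genes it was 5.45% and 1.78%. In adult mice 3 of the 10 genes (Fosl1, Fosl2 and Junb) were higher and 0 were lower, against a background of 6.9% higher and 1.46% lower (9.14% and 2.02% of the better expressed genes), and Egr1 became the 1 lower gene after median-of-ratios scaling and quantile normalization. The median log2 ratio of the 10 genes was 0.32 in young and 0.18 in adult mice, against 0.00 and 0.14 over all genes, and the adult median turned to -0.08 after median-of-ratios scaling and -0.16 after quantile normalization. Junb was called at both ages. With FPKM as deposited and 1 added it was alone in this, but Egr1 was lower at both ages after median-of-ratios scaling (-1.05 and -1.19) and quantile normalization (-1.09 at each age), and Fosl1 was past 2-fold at both ages on the TPM scale and with 0.1 FPKM added, in young mice against a library at 0. Fosl1 enters the young median with its value against a library at 0.

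**Figure D3:**
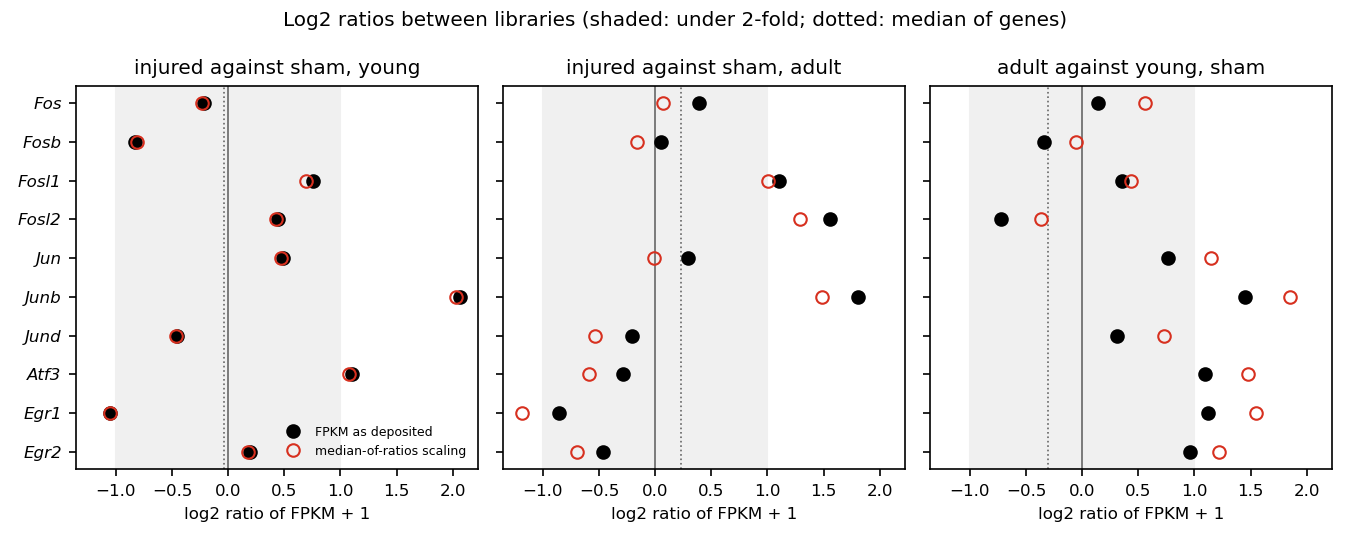
Log2 ratio of FPKM + 1 (x axis) of the 10 genes (rows) for injured against sham cartilage in young mice, the same in adults, and the adult against the young sham library. Black points are FPKM as deposited, open red points are median-of-ratios scaling, the shading covers ratios under 2-fold and the dotted line is the median of the genes of 1 FPKM or more everywhere. Junb lies to the right of the shading in all 3 panels, and Egr1 lies to the left of it after young injury, at -0.86 as deposited and -1.19 after scaling for adult injury, and to the right for adult against young sham.

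The general level of the libraries differed. For the 10891 genes that reached 1 FPKM everywhere, the middle log2 ratio was -0.04 after young injury, 0.23 after adult injury, -0.30 for adult against young sham and -0.07 for adult against young injured cartilage. An adult injury ratio is therefore read against 0.23, and relative to this median Junb was higher by 1.58, Fosl2 by 1.33 and Fosl1 by 0.87, and Egr1 was at -1.09.

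Without injury, Junb, Atf3 and Egr1 were higher in adult than in young sham cartilage. The adult level was 3.06 times the young level for Junb, 2.46 times for Atf3 and 2.25 times for Egr1, log2 ratios of 1.45, 1.09 and 1.12. Of all genes 2.66% were higher and 10.6% lower by 2-fold or more, and of the better expressed genes 4.07% and 15.4%. Jun had a ratio of 0.76 and Egr2 of 0.96, and these became 1.15 and 1.22 after median-of-ratios scaling, so that 5 of the 10 genes were then past 2-fold. The shares of all genes above are for FPKM as deposited and were not counted after this scaling. It moved the middle ratio of the genes of 1 FPKM everywhere from -0.30 to 0.07. Fosl2 was the gene with the lowest ratio, -0.72, and none of the 10 was lower by 2-fold. Because the adult sham library is labelled as days 3 to 14, age and time after surgery cannot be told apart here. The same library is the reference of every adult injury ratio, where time after surgery cannot be told apart from injury. In this library Hspa1a and Hspa1b, heat shock genes that tissue handling and stress induce, were at 17.3 and 20.7 FPKM, against 1.61 and 1.77 FPKM in young sham cartilage. These 2 genes are near-identical copies, and they were at 2.49 and 2.68 FPKM in young injured and 5.85 and 6.44 FPKM in adult injured cartilage. Of the 13 heat shock genes listed, 3 were higher and 4 lower in adult than in young sham cartilage (3 and 1 after median-of-ratios scaling). Among cell markers, 8 of 15 muscle, 6 of 15 macrophage, 1 of 15 neutrophil, 5 of 10 osteoblast, 2 of 13 chondrocyte (Comp and Chad) and 1 of 9 erythroid genes (Hbb-bs) were higher, and 8 of 13 chondrocyte, 9 of 10 B cell, 7 of 9 erythroid and 1 of 10 fibroblast genes lower, in adult than in young sham cartilage. These marker counts are for FPKM as deposited. After median-of-ratios scaling the B cell genes Pax5 (-0.96), Vpreb1 (-0.90), Igll1 (-0.99) and Blk (-0.89) and the fibroblast gene Col3a1 (-0.73) were under 2-fold. Past 2-fold were then further genes, among them Mpo (1.02), Prtn3 (1.42), Adgre1 (1.17) and Myh7 (1.13). The part of tissue handling, stress or the cell mixture in the levels of Junb, Atf3 and Egr1 was not tested.

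Between the injured libraries, Junb and Egr1 were higher in adult mice, at 2.34 and 2.69 times the young level (log2 ratios 1.20 and 1.31). The background was 1.8% of all genes higher and 3.09% lower, and 2.81% and 3.54% of the better expressed genes. Of the 10 genes, 9 had a ratio above 0, the exception being Atf3 at -0.30. The share of all genes above 0 was not counted, and their median ratio was -0.04. This comparison shares its libraries with those above. Between the same libraries 5 of 10 osteoblast, 3 of 13 chondrocyte, 2 of 15 neutrophil and 1 of 15 muscle markers were higher in adult mice, and 9 of 9 erythroid, 6 of 10 B cell, 6 of 13 chondrocyte and 1 of 15 macrophage markers lower.

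The other immediate early genes moved in both directions after injury. Of 44 such genes, 5 were higher and 3 lower by 2-fold in young mice, and 12 were higher and 4 lower in adult mice, with median log2 ratios of 0.08 and 0.54 (0.06 and 0.23 after median-of-ratios scaling, which left 9 higher in adult mice). With 5 FPKM added, 1 was higher and 2 lower in young mice, and 9 were higher and 3 lower in adult mice. All 3 genes lower in young mice in the main count were of the Nr4a family, orphan nuclear receptors. Nr4a1 stood at 34.4 FPKM (sham) and 4.88 FPKM (injured) in young animals, and at 39.8 FPKM (sham) and 9.45 FPKM (injured) in adults, and it fell at both ages with log2 ratios of -2.59 and -1.96. Nr4a2 fell by 2.21 in young mice, and stood at 3.08 FPKM before and 3.24 FPKM after adult injury. In adult mice Cyr61, Ctgf and Arc were also lower. Gadd45a, a stress sensor gene, rose from 10.6 to 31.9 FPKM after young injury, and from 6.81 to 74.9 FPKM after adult injury, ratios of 1.51 and 3.28. Nfkbiz and Ptgs2, which encode an NF-kB regulator and the prostaglandin synthase COX-2, were higher at both ages as well. Ier3 rose by 2.05 in adult mice, with a ratio of 0.81 in young mice, and the anti-proliferative gene Btg1 by 1.90, with a ratio of 0.50 in young mice.

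Among 20 further bZIP genes, 2 were higher in young mice and 4 in adult mice, among the latter Batf and Cebpd, while Ddit3 was lower in adult mice, and the median log2 ratios were 0.08 and 0.38, the adult one falling to 0.08 after median-of-ratios scaling and 0.14 after quantile normalization. The adult ratio of Ddit3, -1.03, was under 2-fold on the TPM scale and with 5 FPKM added. Cebpd was at 3.61, 7.91, 4.88 and 23.6 FPKM in young sham and injured and adult sham and injured cartilage, and its ratio was 0.95 after young and 2.06 after adult injury.

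Upstream, 0 of 29 genes of the MAP kinase cascade were past 2-fold in young mice and 3 in adult mice, all higher (1 after either median-of-ratios or quantile scaling), and 0 of 12 SRF, ETS and CREB family genes were past 2-fold in either injury comparison. The medians were 0.01 and 0.42 for the cascade and -0.12 and 0.25 for the promoter factors, and the adult medians became 0.12 and -0.02 after median-of-ratios scaling. Srf itself was at 5.28, 5.62, 6.95 and 5.76 FPKM. Of 18 feedback inhibitors, 1 was lower in young mice, which was Dusp1, a MAP kinase phosphatase that is itself an immediate early gene. Dusp1 stood at 39.8 FPKM (sham) and 18.9 FPKM (injured) in young animals, and at 180 FPKM (sham) and 95.1 FPKM (injured) in adults, an order like that of Egr1, with log2 ratios of -1.03 and -0.92 after injury and 2.15 between the sham libraries. In adult mice 1 inhibitor was higher, Zfp36 (1.40), which encodes an mRNA decay factor, and 1 was lower, Dusp8. After median-of-ratios scaling 3 were lower in adult mice, Dusp8 (-1.29), Dusp1 (-1.25) and Nab2 (-1.05), so that Dusp1 was then lower at both ages. With 0.1 FPKM added or on the TPM scale 4 were higher in adult mice.

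Downstream, a list of 22 genes known as AP-1 targets in other systems was examined, chosen with earlier results of these data known. Over all genes 4.57% were higher and 1.27% lower by 2-fold in young mice, and 6.9% and 1.46% in adult mice. Of the 21 listed targets above 0 in at least 1 library, 15 were higher and 0 lower by 2-fold in young mice, and 12 were higher and 1 lower in adult mice, with median log2 ratios of 1.41 and 1.51. After median-of-ratios scaling the medians were 1.38 and 1.40. With 5 FPKM added 11 were higher in young mice and 9 in adult mice, and the medians were 1.21 and 0.86, the adult one under 2-fold. They include genes listed at 0 in a sham library, Mmp10 and Il6 in young and Il6 and Ccl2 in adult mice. The collagenase gene Mmp13 rose from 25.3 to 474 FPKM after young injury and from 21.2 to 518 FPKM after adult injury, and Mmp3 from 4.99 to 152 and from 41.2 to 673 FPKM. Hmox1, which degrades heme, rose from 8.90 to 190 and from 6.98 to 133 FPKM. Many of these genes have other regulators and are also transcribed in macrophages, and no measure of AP-1 binding was made.

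**Figure D4:**
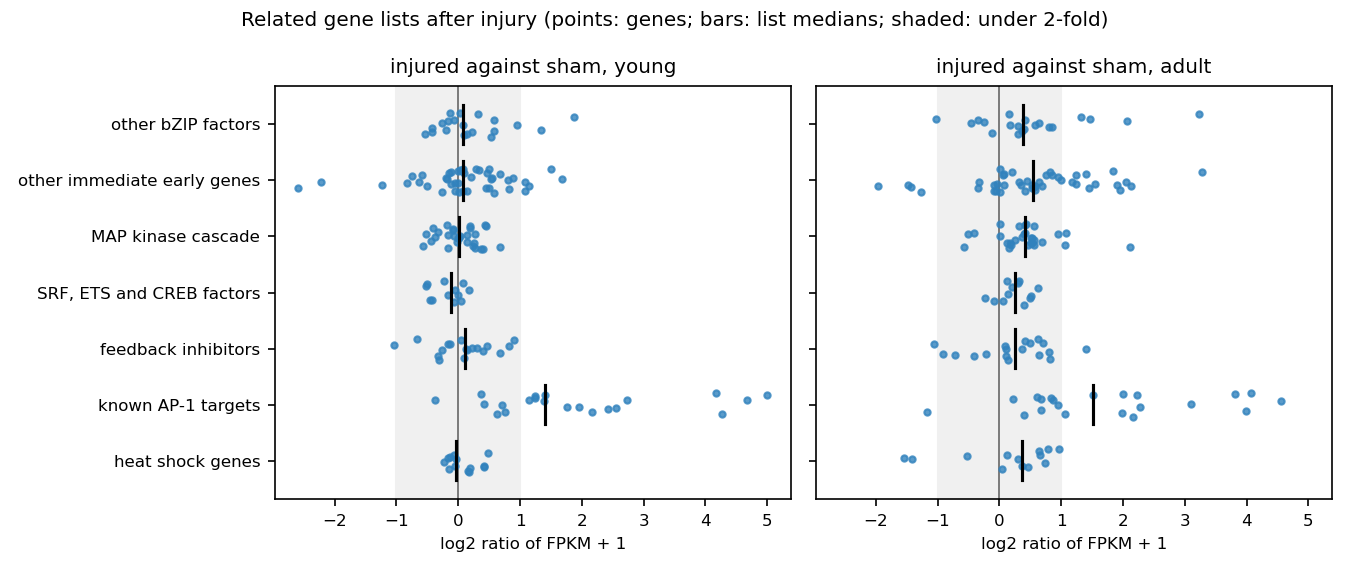
Log2 ratio of FPKM + 1 after injury (x axis) in young (left) and adult mice (right) for 7 lists of related genes (rows), with 1 point per gene above 0 in at least 1 library, bars at the list medians and shading over ratios under 2-fold. The known AP-1 targets have medians of 1.41 and 1.51, whereas the other immediate early genes have medians of 0.08 and 0.54 and scatter to both sides. The lists were chosen with earlier results of these data known.

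The genes whose levels followed each factor most closely were found by the distance between log2 profiles centred on their mean over the 4 libraries, among the 8055 genes averaging 5 FPKM or more. For Junb these were H2-Ab1, an MHC class II gene, at a distance of 0.28, the metallothionein gene Mt3 at 0.39 and Ggta1 at 0.47. For Egr1 they were Cpe at 0.19, Ank at 0.24 and Scara3 at 0.25. For Atf3 they were Rab7b at 0.18, Parp3 at 0.23 and Vim at 0.26, and for Fosl2 they were Lmo4 at 0.09, Sdc1 at 0.19 and Grb2 at 0.21. Phf1, Gm16070 and Yipf2 were nearest to Fos, Rnf19b, Nupr1 and Mgat4b to Jun, and Rilpl1, Dexi and Idua to Jund, at distances of 0.04 to 0.10. With 4 libraries such likeness is weak. Of the 8055 genes, 143 lay nearer to Junb than its closest member, Fosl1, and 934 lay nearer to Fos than its closest member, Jund. How many would lie nearer for genes picked at random was not computed.

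The libraries held several cell types, and in bulk RNA fewer cells of a type and less RNA per cell cannot be told apart. Chondrocyte markers were present at 1 FPKM or more for 13 of 13 genes found in every library, with summed levels of 23292, 19021, 35967 and 21610 FPKM in young sham and injured and adult sham and injured cartilage. After injury 0 were higher and 2 lower in young mice, and 5 were higher and 1 lower in adult mice. After median-of-ratios scaling 3 were higher in adult mice (Acan, Matn1 and Col9a1), and the adult median of 0.24 became -0.10. The gene lower as deposited was Chad, which at 20538 FPKM in adult sham and 8281 FPKM after adult injury weighed heavily on the adult sums. Of 15 macrophage markers, 14 rose at both ages, from a summed 204 to 2005 FPKM after young injury and from 335 to 1748 FPKM after adult injury, and none was at 0. Of 10 endothelial markers 7 rose at both ages, from 33.3 to 112 and from 41.1 to 103 FPKM. Of 15 neutrophil markers 5 rose after young and 3 after adult injury, their sums going from 1315 to 3178 and from 1736 to 4121 FPKM. Most of the adult increase was Lcn2, at 82.7 FPKM before and 2117 FPKM after injury, while S100a8 and S100a9 had adult log2 ratios of 0.15 and 0.24. Fibroblast markers summed to 1885 and 5148 FPKM in young mice, with 4 of 10 higher, and to 1900 and 7296 FPKM in adult mice, with 4 higher and 2 lower. Muscle markers summed to 1010, 808, 1921 and 557 FPKM, and 2 of 15 fell after injury in young and 10 of 15 in adult mice. Erythroid markers summed to 9680, 18447, 6956 and 3032 FPKM, with 1 of 9 higher in young mice and 3 lower in adult mice. Osteoblast markers were above 1 FPKM for 10 of 10 genes in every library and summed to 1385, 2345, 6231 and 7230 FPKM, with 2 higher after young and 4 after adult injury. After median-of-ratios scaling Col1a1 (1.39) stayed past 2-fold in adult mice, while Col1a2, Phex and Runx2 were at 0.75, 0.85 and 0.95. B cell, adipocyte, and T and NK cell markers summed to between 1.79 and 84.1 FPKM, and of them Cd3g, Cd3e, Lep and Retn were at 0 in 1 library each. Of these lists none had a gene past 2-fold after young injury, and after adult injury 1 B cell gene and 2 T and NK cell genes were higher and 2 adipocyte genes lower. All of the 10 factors can be transcribed in these cell types too, and the part of the cell mixture in the ratios of Junb, Fosl1, Fosl2, Atf3 and Egr1 was not tested.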

How the data were processed

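Total RNA of pooled cartilage was made into poly-A selected, strand-specific libraries and sequenced with paired ends. The authors deposited 1 table of FPKM, fragments per kilobase of transcript scaled to the mapped fragments, for 24532 genes on mm10. The submitters' processing notes name HISAT2 2.1.0, StringTie 1.3.4d, STAR and SAMtools without their roles. FPKM depend on the summed expression of the other genes, so a few abundant genes can shift a library.

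Columns were matched to libraries by name. Ratios were taken as log2 of FPKM + 1 without rescaling, over the 18181 genes not at 0 throughout; the added 1 understates changes of low genes such as Fosl1 and Egr2. With 1 library per group no test was made, and 2-fold was the threshold. Fragment counts were not analysed here. FPKM times transcript length of 17546 single-transcript genes fell on steps of 38.15, 38.2, 32.55 and 39.05 (young sham, young injured, adult sham, adult injured), which would be about 26200000, 26200000, 30700000 and 25600000 fragments if 1 step is 1 fragment, but only 36.8% to 40.1% of the low products lay within 1.5 of a step.

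Members, lists and alternatives were chosen with earlier results of these data known. Genes named from the lists are up to 4 with the largest absolute injury ratio at each age among those with a mean of at least 5 FPKM, and other names from the lists (Nr4a3, Cyr61, Ctgf, Arc, Nfkbiz, Ptgs2, Batf, Dusp8 and the like) and the family shares were chosen after their values were seen. Values of some listed genes are not reported here. The nearest 3 genes were taken for each member of at least 5 FPKM in 1 library. Coordinates and promoters are from RefSeq GRCm38.p6, and overlaps from GENCODE M21. The calculations were tested on simulated data. Python 3.11.15, numpy 2.4.6, pandas 2.3.3 and matplotlib 3.10.9 were used.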

Additional observations from a re-analysis of the deposited data

Results flagged for a closer look

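Fos, Fosb, Atf3 and Egr2 had injury log2 ratios of opposite sign in young and adult mice, each from 1 library per group, and the difference was not tested. The share of all genes with opposite signs was not counted. For the genes of 1 FPKM or more everywhere, the middle ratios, -0.04 in young and 0.23 in adult mice, were of opposite sign too. Atf3 was at 1.11 in young and -0.29 in adult mice, a difference of -1.39 for adult minus young. Egr2 was at 0.20 and -0.46, a difference of -0.66. Fos was at -0.22 and 0.39, a difference of 0.61, and its adult ratio was 0.07 after median-of-ratios scaling. Fosb was at -0.83 and 0.05, a difference of 0.89, and its adult ratio was below 0 after median-of-ratios scaling and quantile normalization, so that both ages then had the same sign.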

How the results depend on the processing

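No paired analysis was possible because each group is 1 library. Each choice was changed on its own. Of 200 recomputed log2 ratios of the 10 genes, 178 kept their direction and side of the 2-fold threshold or stayed under it, 7 fell below it, 15 moved past it and 0 called ratios changed sign. Fosl2 and Junb stayed past 2-fold in adult mice under each pseudocount and scaling tried.

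For injury in young mice the number of higher genes was 2 as reported, 3 with a pseudocount of 0.1 FPKM, on the TPM scale or at 1.5-fold, and 1 with a pseudocount of 5 FPKM or a 3-fold threshold. Fosl1, against a library at 0, was the gene added. The number of lower genes was 1 as reported, 2 with a pseudocount of 0.1 FPKM, on the TPM scale or at 1.5-fold, and 0 with 5 FPKM or at 3-fold, and Fosb was the gene added. For injury in adult mice the 3 higher genes became 2 with 5 FPKM or after quantile normalization and 1 at 3-fold, and the 0 lower genes became 1 after median-of-ratios scaling, after quantile normalization and at 1.5-fold. For adult against young sham the 3 higher genes became 5 with 0.1 FPKM, after median-of-ratios scaling, after quantile normalization and at 1.5-fold, 1 with 5 FPKM and 0 at 3-fold, the 0 lower genes became 1 at 1.5-fold, and the median of 0.56, in which Fosl1 stands against a library at 0, became 1.02 with 0.1 FPKM. For adult against young injured the 2 higher genes became 1 with 5 FPKM, 4 at 1.5-fold and 0 at 3-fold. The injury ratios of 2 genes, Fosl2 and Atf3, differed by 1 or more between the ages, against 4 genes with 0.1 FPKM, 0 with 5 FPKM, and 1 after either median-of-ratios or quantile scaling. The difference of Fosl2 was 0.86 after median-of-ratios and 0.78 after quantile scaling. On the TPM scale that of Fosb, 1.28, passed 1 as well. The share of all genes that differed by 1 or more was not counted. The share of all genes past the threshold either way was 14.3% at 1.5-fold and 2.29% at 3-fold for injury in young mice, 21.9% and 2.89% for injury in adults, 31.6% and 3.78% for adult against young sham, and 15.3% and 1.56% for adult against young injured. A lower or higher threshold, or a pseudocount that weighs less or more on low values, accounts for these moves by construction, and for the scalings the cause was not tested. The counts and medians of the related lists gave 480 recomputed values, of which 60 counts moved by over 1.5 times and 1 median (0.86 for the AP-1 targets after adult injury, with 5 FPKM) fell below the threshold. Of the medians past the threshold 0 changed sign. Some medians under it did, such as that of the SRF, ETS and CREB factors after adult injury, from 0.25 to -0.02 after median-of-ratios scaling.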

Other observations

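Map2k4, a kinase upstream of JNK, the kinase that phosphorylates Jun, stood at 16.2 FPKM (sham) and 15.2 FPKM (injured) in young animals, and at 1.90 FPKM (sham) and 11.5 FPKM (injured) in adults. The adult sham library was far below the other 3. The injury log2 ratio was 2.11 for adult and -0.08 for young animals. Ddit3, a bZIP gene of the endoplasmic reticulum stress response, was at 23.1, 22.2, 58.2 and 28.0 FPKM in that order of libraries, with adult sham cartilage as the high library. The adult sham library was thus the extreme one for Map2k4, Ddit3, Dusp1, Egr1 and Egr2, which were chosen here after their values were seen.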
